A study of Homo sapiens with 12 samples.

Results

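The 41 genes described here are interferon-stimulated genes, a group matched by gene name in the deposited expression tables of SCC15 and SCC25 cells, which are established head and neck squamous cell carcinoma (HNSCC) lines from the tongue. The members are a list of names, chosen with earlier results of these data known, and all 41 were found among the 29657 genes listed for SCC15 and the 31055 listed for SCC25, or 34227 genes over both tables. RNA sequencing was performed in 4 groups of 3 libraries, which were SCC15 and SCC25 cells treated for 24 h with squamocin or with the solvent DMSO, and the labels name no genetic change in any group. The labels name the treatment ACGs, short for annonaceous acetogenins, plant fatty acid derivatives that include squamocin, and the methods of the study give a dose of 10 µg/mL. Each line was treated at a single dose and time, and the labels do not say whether the 3 libraries of a group came from separate cultures, so the p-values measure only the spread between these libraries.

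Interferons are secreted proteins that alert cells to viruses. Type I interferons such as IFN-β and type III interferons (IFN-λ) bind receptors that act through the JAK kinases and activate a transcription factor complex called ISGF3, of which STAT2 and IRF9 are parts. ISGF3 binds the interferon-stimulated response element (ISRE) in the promoters of its target genes, and many of these genes encode proteins that sense viral RNA, block translation, degrade RNA or restrain virus entry and release. Several of them can also be switched on by IRF1, IRF3 or NF-κB without interferon, and tumor cells are known to differ widely in how strongly they express them at rest.

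The libraries held 16665563 to 22748845 recovered reads, and values are given as normalized counts, which are reads divided by a size factor set within each cell line. In SCC15 the squamocin replicate 3 stood apart from its group, with a chi-square per degree of freedom of 64.1 and 56.8 against replicates 1 and 2. All other replicate pairs lay between 1.67 and 9.95. The highest of these, 6.73 and 9.95, were those of SCC25 squamocin replicate 3 against replicates 1 and 2, which gave 2.38 against each other. SCC15 counts of members, and members whose SCC15 call changed, are also given without the SCC15 squamocin replicate 3. SCC15 values of the pathway genes are given with all libraries only, also where squamocin replicate 3 stood apart. Of 8 squamous epithelial markers, all were expressed in SCC25, whereas in SCC15 KRT5 reached at most 13.1, DSG3 at most 2.56 and TP63 at most 22.7 normalized counts, although the keratins KRT17 and KRT14 were expressed. The summed level of these 8 markers was 208829 to 362916 with squamocin and 113048 to 119299.9 with DMSO in SCC15, and 49389 to 51938 and 27525 to 27814 in SCC25. The 6 leukocyte markers, of which 4 were listed in each line, summed to 321 to 501 with squamocin and 502 to 546 with DMSO in SCC15. In SCC25 they summed to 75 to 95.5 and 370.0 to 452, with CD14 alone at 3.33 to 7.28 with squamocin and 306 to 393 with DMSO. Among the 3 leukocyte markers tested in SCC25, CD14 was lower, 1 was higher and 1 did not pass the test. The general leukocyte marker PTPRC stayed at or below 3.95 in SCC15 and was not listed in SCC25. Of the 4 endothelial markers only 2 were listed in SCC15 and all 4 in SCC25, so the sums of the lines cover different genes. They were 66.1 to 77.1 and 158 to 178 with squamocin and with DMSO in SCC15 and 19.8 to 37.7 and 233 to 296 in SCC25. The 6 fibroblast markers summed to 482 to 486 and 708 to 784 and to 1073 to 1228 and 766 to 809.6, in the same order. The part of these markers in the results was not tested. In bulk RNA, fewer cells expressing a gene and less of its RNA per cell cannot be told apart.

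Before any drug effect was considered, the level of the genes in DMSO was described per length, as RPKM, which is reads scaled by exon length and by the reads of the library. In SCC15 many of these genes were already abundant. 29 of the 41 genes had a higher mean RPKM in SCC15 than in SCC25, and the median over the genes was 25.9 RPKM in SCC15 and 10.7 RPKM in SCC25. RPKM was computed only for the members, so no share of all genes stands beside this count. Whether the difference between the lines was particular to the members was not tested.

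The widest gap was that of RSAD2, which encodes viperin, an enzyme that makes a chain-terminating nucleotide. Its level was 272 ± 8.33 RPKM (SD, n = 3) in SCC15 and 0.492 ± 0.0869 RPKM in SCC25. OASL, a 2′-5′-oligoadenylate synthetase-like protein that boosts RNA sensing, stood at 679 ± 8.81 RPKM in SCC15 and 4.2 ± 0.1 RPKM in SCC25. ISG15, a ubiquitin-like modifier, was the most abundant member in SCC15 with 1852 ± 20.8 RPKM, against 123 ± 1.39 RPKM in SCC25. CMPK2, IFIT1, HERC5 and DDX58 were also over 10 times as high in SCC15 by mean RPKM, with ratios of 53, 25.1, 18.5 and 13.9. The order was the opposite for EPSTI1, XAF1, IFI35, IFITM1 and MX1, for which the SCC15 level was 0.236, 0.448, 0.479, 0.506 and 0.523 times that of SCC25. IRF9, PARP9, DTX3L and DHX58 were nearly level between the lines, with ratios from 0.894 to 1.08.

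As a share of all recovered reads, the 41 genes took 1.722 to 1.774% in the SCC15 DMSO libraries and 1.159 to 1.531% in the SCC15 squamocin libraries. The corresponding shares in SCC25 were 0.4243 to 0.4264% and 0.4547 to 0.4795%. The groups of treated and untreated libraries did not overlap in either line, and the treated libraries were lower in SCC15 and higher in SCC25. A share of reads depends on the library total. Scaling to equal totals moved the median log2 fold change of all genes by -0.51 in SCC15 and -0.21 in SCC25. Whether the change in share was particular to these genes was not tested. OASL, ISG15 and RSAD2 supplied the most member reads in every SCC15 library. In SCC25 the leading genes were IFITM3, PARP14 and either IFITM1 or BST2 with DMSO, and IRF1, ISG15 and IFITM3 with squamocin.

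The effect of squamocin was then examined within each line with limma on the log2 scale, with a threshold of 0.05 on the adjusted p. In SCC15, 7 of the 41 genes were higher with squamocin, 16 were lower and 18 did not pass the test, beside 30.9% of all 15902 tested genes that were higher and 30% that were lower. The median log2 fold change of the members was -0.27 in SCC15, where that of all tested genes was 0.01. Without the SCC15 squamocin replicate 3, 11 members were higher and 25 lower in SCC15, while 38% and 37.6% of all genes were called. With each library scaled to the same total, which moved the median of all genes by -0.51 in SCC15 and -0.21 in SCC25, 5 members were higher and 28 lower in SCC15, beside 14.6% and 51% of all genes.

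In SCC25, 16 members were higher with squamocin, 21 were lower and 4 did not pass the test, beside 38.3% of all 16539 tested genes that were higher and 38.5% that were lower. The median log2 fold change was -0.16 for the members and -0.01 for all genes. Members were called in both directions in SCC25, as were all tested genes. Their fold changes on the log2 scale ran from -2.81 for IFITM1 to 3.24 for RSAD2. In SCC15 they ran from -1.79 for PARP9 to 2.32 for IRF1.

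**Figure D1:**
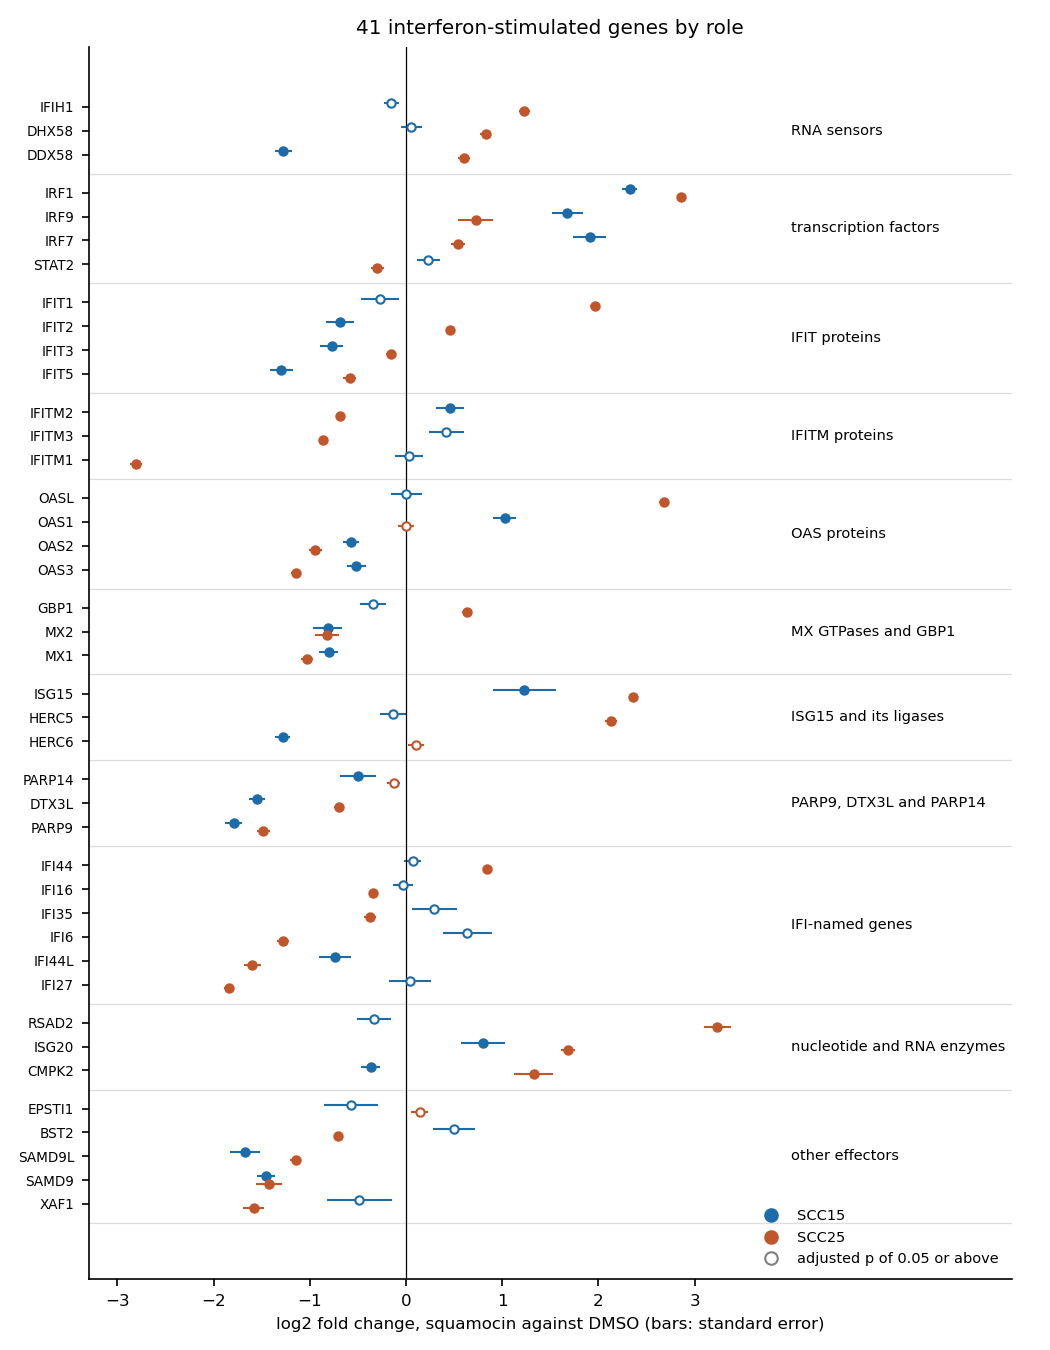
Log2 fold change of each of the 41 genes (squamocin against DMSO, horizontal axis) in SCC15 (blue) and SCC25 (orange), grouped by role, with standard errors as bars and open points for an adjusted p of 0.05 or above. In SCC25 the points spread from -2.81 for IFITM1 to 3.24 for RSAD2, and in SCC15 from -1.79 for PARP9 to 2.32 for IRF1.

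The promoter windows of the members were read from RefSeq (GRCh38.p14), from 250 bases before to 50 after the annotated start. A window was found for 34 of the 41 genes, and IFIT2, IFITM2, MX2, OAS2, OASL, DHX58 and IRF7 had none in the table used. On either strand, the ISRE core, which is GAAA, any 2 bases and GAAA again, was present in 21 of these 34 windows (61.8%), where 3.65% of the 27305 windows of all genes held it. Among the members the share was 7 of 12 (58.3%) for genes higher in SCC25 and 12 of 18 (66.7%) for genes lower in SCC25, so the match was found in both directions. In SCC15 the shares were 2 of 5 (40%) for genes that were higher and 8 of 13 (61.5%) for genes that were lower.

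These promoters are shown because all hold the ISRE core although the genes moved in opposite directions in SCC25, where ISG15 and IFIT1 were higher and IFI27 and IFITM1 lower with squamocin. Capitals mark the matches to the ISRE core, on either strand, and each window is written 5′ to 3′ on the strand of its gene.
ISG15 (chr1:1013247-1013546, plus strand): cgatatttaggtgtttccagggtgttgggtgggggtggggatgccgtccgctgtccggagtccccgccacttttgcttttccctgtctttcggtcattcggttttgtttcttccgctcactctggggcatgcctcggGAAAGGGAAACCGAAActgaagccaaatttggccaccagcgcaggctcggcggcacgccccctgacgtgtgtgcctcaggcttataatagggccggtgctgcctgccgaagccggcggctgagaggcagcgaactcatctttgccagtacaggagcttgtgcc
IFIT1 (chr10:89392373-89392672, plus strand): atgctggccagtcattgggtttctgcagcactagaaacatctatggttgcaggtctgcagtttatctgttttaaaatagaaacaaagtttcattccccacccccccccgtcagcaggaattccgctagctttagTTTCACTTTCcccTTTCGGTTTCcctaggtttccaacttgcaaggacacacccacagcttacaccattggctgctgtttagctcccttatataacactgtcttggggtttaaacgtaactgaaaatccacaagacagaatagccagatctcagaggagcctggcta
IFI27 (chr14:94110486-94110785, plus strand): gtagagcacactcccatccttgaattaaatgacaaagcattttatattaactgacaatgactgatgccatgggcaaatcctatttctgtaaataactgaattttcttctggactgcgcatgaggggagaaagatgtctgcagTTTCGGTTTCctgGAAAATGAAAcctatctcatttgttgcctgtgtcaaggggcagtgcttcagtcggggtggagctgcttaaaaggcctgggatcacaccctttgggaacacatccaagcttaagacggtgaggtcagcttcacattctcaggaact
IFITM1 (chr11:313790-314089, plus strand): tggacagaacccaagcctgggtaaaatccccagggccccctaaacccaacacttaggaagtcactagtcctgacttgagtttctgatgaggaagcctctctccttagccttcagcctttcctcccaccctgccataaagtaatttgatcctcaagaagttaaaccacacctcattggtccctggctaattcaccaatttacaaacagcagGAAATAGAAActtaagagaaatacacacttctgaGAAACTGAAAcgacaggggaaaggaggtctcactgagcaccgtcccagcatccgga
Each of the windows held 2 matches. Those of ISG15 overlapped, at -113 to -104 and -107 to -98 from the start, counting the first transcribed base as 1. In IFIT1 they lay at -116 to -107 and -103 to -94, and in IFI27 at -108 to -99 and -95 to -86. In IFITM1 they lay closer to the start, at -40 to -31 and -6 to 4. A match describes the letters of a window and not the binding of a factor.

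**Figure D2:**
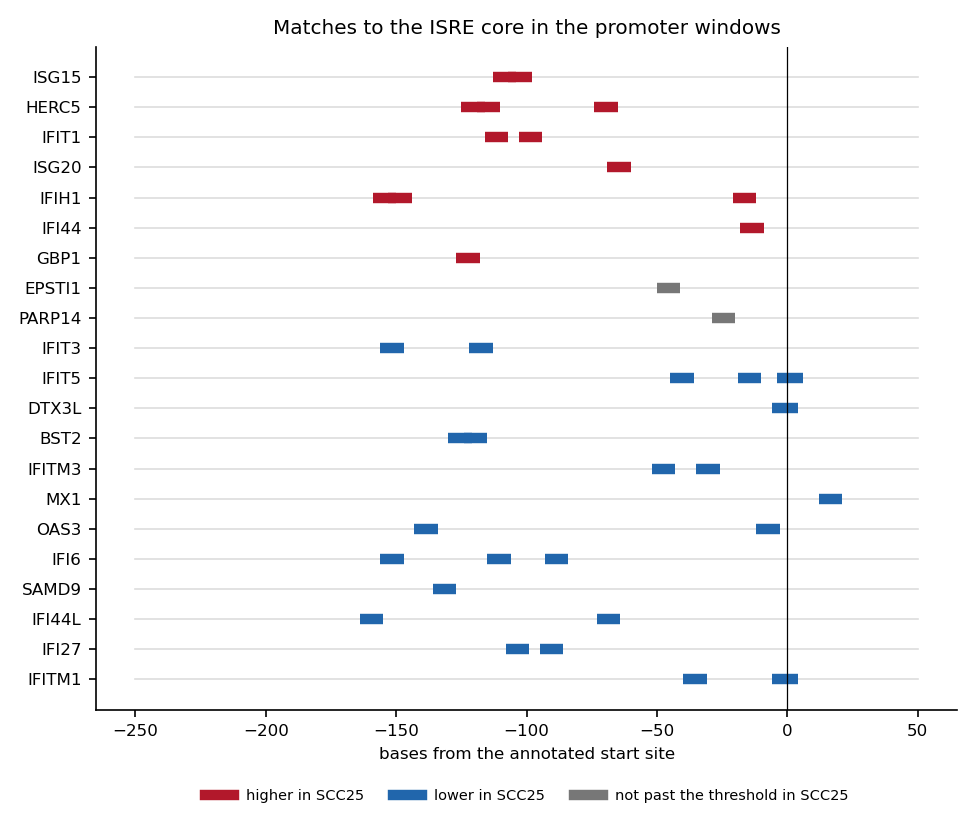
Position of each match to the ISRE core in the 21 promoter windows that held it, in bases from the annotated start site (horizontal axis), ordered from the highest to the lowest SCC25 fold change, with red for genes higher, blue for genes lower and grey for genes not past the threshold in SCC25. The 38 matches lay between -164 and 21, the red rows ended at -9, and the blue rows also held matches at the start itself and up to 21 (MX1).

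The RNA sensors are the helicases DDX58 (RIG-I) and IFIH1 (MDA5), which bind viral RNA and signal through MAVS, and DHX58 (LGP2), which tunes both. All 3 were higher with squamocin in SCC25. DDX58 had 1349.8, 1375 and 1521 with squamocin and 907, 992 and 896 with DMSO, in normalized counts, and its log2 fold change was 0.60 ± 0.06 (SE, adjusted p = 1.76e-06). IFIH1 had 2167, 2027 and 2374 with squamocin and 905, 928 and 958 with DMSO, a log2 fold change of 1.23 ± 0.06 (SE, adjusted p = 1.43e-09). For DHX58 the values were 1101, 1085 and 1209 with squamocin and 639.9, 629.7 and 639 with DMSO, and the log2 fold change was 0.83 ± 0.06 (SE, adjusted p = 4.91e-08). None of the 3 sensors had overlapping groups in SCC25, where 38.3% of all tested genes were higher with squamocin and 38.5% lower. The share of all genes with separate groups was not computed.

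In SCC15 the sensors behaved differently. DDX58 fell from 10516, 11693 and 10844 normalized counts with DMSO to 4748, 4426 and 4459 with squamocin, a log2 fold change of -1.28 ± 0.09 (SE, adjusted p = 4.43e-05). DDX58 was thus called in opposite directions in the lines, although its treated level in SCC15 was still 3.11 times that in SCC25 by mean RPKM. IFIH1 had 1819, 1743 and 1853 with squamocin and 2009.9, 2053 and 1955 with DMSO in SCC15, and DHX58 had 691, 589 and 541 with squamocin and 581, 572 and 590.1 with DMSO. Their log2 fold changes of -0.15 ± 0.08 (SE, adjusted p = 0.119) and 0.06 ± 0.11 (SE, adjusted p = 0.676) did not pass the test, and without squamocin replicate 3 IFIH1 did, at -0.17 (adjusted p = 0.0031). In GENCODE release 44, 43.2% of the exonic bases of DDX58 are shared with a gene on the same strand, so its reads can be uncertain.

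Among the transcription factors, IRF1, IRF7 and IRF9 were higher with squamocin in both lines. IRF1, a factor that can activate interferon-stimulated genes on its own, had 11052, 10931 and 11839 with squamocin and 2315, 2226 and 2209 with DMSO in SCC15, with a log2 fold change of 2.32 ± 0.08 (SE, adjusted p = 5.49e-06). In SCC25 IRF1 had 28237, 28857 and 29613 with squamocin and 3988, 3916 and 4047 with DMSO, with a log2 fold change of 2.86 ± 0.04 (SE, adjusted p = 1.39e-14). The treated libraries lay far above the untreated libraries in both lines, and IRF1 became the member with the most reads in SCC25. In GENCODE release 44, 22.9% of its exonic bases are shared with antisense genes, whose reads cannot be told apart from its own where counting does not use strand. The release 44 exons of IRF1 cover more bases than the deposited gene spans, so this share need not hold for the counted gene.

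IRF7, the factor that amplifies type I interferon production, had 1119, 1315 and 1716 with squamocin and 415, 349 and 326 with DMSO in SCC15. The SCC25 libraries held 758, 745 and 792 with squamocin and 488, 511 and 576 with DMSO. Its log2 fold change was 1.91 ± 0.17 (SE, adjusted p = 0.000112) in SCC15 and 0.54 ± 0.07 (SE, adjusted p = 1.65e-05) in SCC25, with no overlap of groups in either. IRF9, the DNA-binding subunit of ISGF3, was low throughout, with 285, 272 and 208 with squamocin and 73.4, 73.5 and 89 with DMSO in SCC15. The counts in SCC25 were 128, 172 and 229 with squamocin and 92.7, 109.7 and 109 with DMSO. The log2 fold changes of IRF9 were 1.68 ± 0.16 (SE, adjusted p = 0.00017) and 0.72 ± 0.18 (SE, adjusted p = 0.00295), and in GENCODE release 44, 27.2% of its exonic bases are shared with other genes, one of them on the same strand. STAT2, its partner in ISGF3, had 2833, 2651 and 2092 with squamocin and 2124, 2126 and 2152 with DMSO in SCC15, where squamocin replicate 3 lay below the DMSO libraries and the log2 fold change of 0.23 ± 0.12 (SE, adjusted p = 0.134) did not pass the test. Without that library STAT2 was higher, at 0.36 (adjusted p = 6.35e-07). In SCC25 STAT2 had 1562, 1493 and 1853 with squamocin and 2007, 2038 and 1969.5 with DMSO and was lower, at -0.30 ± 0.07 (SE, adjusted p = 0.0017).

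The IFIT proteins bind foreign RNA and block its translation. Their genes lie side by side on chromosome 10 and responded unequally. IFIT1 had 2839, 2918 and 2788 with squamocin and 712, 765 and 709 with DMSO in SCC25, a log2 fold change of 1.97 ± 0.05 (SE, adjusted p = 4.67e-12). In SCC15 IFIT1 had 10563, 11247 and 17867 with squamocin and 15021, 15955 and 15462 with DMSO, where replicate 3 alone exceeded the DMSO libraries. Its log2 fold change there, -0.27 ± 0.20 (SE, adjusted p = 0.269), did not pass the test, and without replicate 3 it was lower at -0.51 (adjusted p = 7.38e-10).

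IFIT2 was called in opposite directions. It had 9272, 9686 and 13001 with squamocin and 16544, 17589 and 16828 with DMSO in SCC15. In SCC25 the values were 2872, 2767 and 2871 with squamocin and 2109, 1967 and 2109 with DMSO. Its log2 fold changes were -0.69 ± 0.14 (SE, adjusted p = 0.00471) and 0.46 ± 0.05 (SE, adjusted p = 1.11e-06). IFIT3 and IFIT5 were lower in both lines. The log2 fold change of IFIT3 was -0.77 ± 0.12 (SE) in SCC15 and -0.16 ± 0.05 (SE) in SCC25. IFIT5 had 211, 214 and 271 with squamocin and 580.1, 555 and 570.0 with DMSO in SCC15, for a log2 fold change of -1.30 ± 0.12 (SE, adjusted p = 0.000136), and -0.59 ± 0.07 (SE) in SCC25.

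The IFITM proteins sit in membranes and hinder virus entry, and IFITM3 was the most abundant of them in both lines. All 3 were lower with squamocin in SCC25. IFITM1, whose promoter is shown above, had 766, 686 and 782 with squamocin and 5408, 5359 and 4870.3 with DMSO, the largest fall of the 41 genes in that line, at -2.81 ± 0.06 (SE, adjusted p = 1.05e-12). The log2 fold changes of IFITM3 and IFITM2 in SCC25 were -0.86 ± 0.04 (SE) and -0.68 ± 0.04 (SE). In SCC15 IFITM1 had 1985, 2085 and 2899 with squamocin and 2207, 2268 and 2238 with DMSO, and its log2 fold change of 0.03 ± 0.15 (SE, adjusted p = 0.858) turned to -0.14 (adjusted p = 0.0114) without squamocin replicate 3.

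IFITM2 in SCC15 had 2776, 3176 and 4148 with squamocin and 2521, 2348 and 2365 with DMSO and was higher, at 0.46 ± 0.15 (SE, adjusted p = 0.0272), the only member higher in SCC15 and lower in SCC25. This call was lost without squamocin replicate 2 or without any of the DMSO libraries, became 0.30 (adjusted p = 4.65e-05) without squamocin replicate 3, and turned to -0.04 with equal library totals. IFITM3 reached 0.42 ± 0.18 (SE) in SCC15, with an adjusted p of 0.0828, and passed without squamocin replicate 3, at 0.20 (adjusted p = 0.000307). The genes IFITM1, IFITM2 and IFITM3 are near-identical in parts, and reads shared between them could be split or lost in counting. In GENCODE release 44, 31.6% of the exonic bases of IFITM1 are shared with other genes, one of them on the same strand, and 16.3% of those of IFITM3 with antisense genes.

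OAS1, OAS2 and OAS3 make the 2′-5′-oligoadenylates that activate the ribonuclease RNase L, and OASL lacks this activity. OASL had 3050.4, 3186 and 3147 with squamocin and 491, 495 and 472 with DMSO in SCC25, a log2 fold change of 2.68 ± 0.05 (SE, adjusted p = 2.93e-13). In SCC15 the same gene had 56678, 65706 and 79742 with squamocin and 66188, 67687 and 65812 with DMSO, with overlapping groups and a log2 fold change that did not pass the test (adjusted p = 0.987), which became -0.12 (adjusted p = 0.027) without squamocin replicate 3. OAS1 showed the reverse order, with 2551, 2867 and 3469 with squamocin and 1399.9, 1475 and 1447 with DMSO in SCC15 and a log2 fold change of 1.03 ± 0.12 (SE, adjusted p = 0.000355). In SCC25 OAS1 values overlapped between the groups (adjusted p = 1). OAS2 and OAS3 were lower in both lines, with log2 fold changes of -0.57 ± 0.09 (SE) and -0.52 ± 0.10 (SE) in SCC15 and -0.94 ± 0.07 (SE) and -1.14 ± 0.05 (SE) in SCC25.

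The GTPases MX1 and MX2, which trap viral nucleocapsids, were lower in both lines. The log2 fold changes of MX1 were -0.80 ± 0.10 (SE) in SCC15 and -1.03 ± 0.06 (SE) in SCC25, and those of MX2 were -0.81 ± 0.15 (SE) and -0.82 ± 0.12 (SE). GBP1, a guanylate-binding protein that attacks pathogen membranes and is strongly driven by interferon-γ, was higher in SCC25 at 0.63 ± 0.05 (SE, adjusted p = 7.33e-08). In SCC15 its log2 fold change was -0.34 ± 0.14 (SE, adjusted p = 0.0596), and without squamocin replicate 3 GBP1 was lower at -0.48 (adjusted p = 5.33e-08).

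ISG15 is attached to other proteins by the ligase HERC5, and HERC6 is a related ligase. ISG15 was higher in both lines. It had 10085, 9959 and 10038 with squamocin and 1952, 1926 and 1967 with DMSO in SCC25, a log2 fold change of 2.36 ± 0.04 (SE, adjusted p = 7.12e-14). In SCC15 it had 40713, 46762 and 104354 with squamocin and 24656, 24911 and 25137 with DMSO, where replicate 3 held more than the other treated libraries together, and the log2 fold change was 1.23 ± 0.33 (SE, adjusted p = 0.0139). Without that library it was 0.81 (adjusted p = 3.78e-12). HERC5 had 2035, 1866 and 2159 with squamocin and 465, 473 and 438 with DMSO in SCC25, a log2 fold change of 2.13 ± 0.06 (SE, adjusted p = 1.94e-11), and 5771, 6061 and 7994 with squamocin and 6874, 7389 and 7286 with DMSO in SCC15, where -0.13 ± 0.14 (SE, adjusted p = 0.413) did not pass the test and the value without replicate 3 was -0.28 (adjusted p = 6.49e-06). HERC6 was lower in SCC15, with 933, 948 and 974 with squamocin and 2327, 2364 and 2262 with DMSO and a log2 fold change of -1.28 ± 0.07 (SE, adjusted p = 2.37e-05), and its value of 0.11 ± 0.08 (SE) in SCC25 did not pass the test. Without the SCC25 squamocin replicate 3, HERC6 passed as higher in SCC25.

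PARP9 and DTX3L form a complex that ADP-ribosylates and ubiquitylates targets, and PARP14 is a related enzyme. PARP9 and DTX3L were lower in both lines. PARP9 had 443, 448 and 398 with squamocin and 1488, 1519 and 1459 with DMSO in SCC15. The SCC25 libraries held 665, 662 and 581 with squamocin and 1883, 1704 and 1751 with DMSO. The fold changes on the log2 scale were -1.79 ± 0.09 (SE, adjusted p = 1.21e-05) and -1.48 ± 0.07 (SE, adjusted p = 5.76e-10). DTX3L had 658, 649.7 and 591 with squamocin and 1844, 1802 and 1915 with DMSO in SCC15, for a log2 fold change of -1.55 ± 0.08 (SE, adjusted p = 1.84e-05), and -0.69 ± 0.05 (SE) in SCC25. The treated and untreated libraries of both genes were separate in both lines. PARP14 was lower in SCC15 at -0.50 ± 0.19 (SE, adjusted p = 0.0486), a call lost when any of the DMSO libraries was left out, and -0.27 (adjusted p = 5.39e-06) without squamocin replicate 3. Its value of -0.13 ± 0.07 (SE) in SCC25 did not pass the test with all libraries, and PARP14 passed as lower without the SCC25 squamocin replicate 3.

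Among the genes named IFI, 5 of 6 were lower in SCC25 and 1, IFI44, was higher. IFI27, a mitochondrial protein induced by type I interferon, had 555, 539.7 and 533 with squamocin and 1880.2, 2022 and 1929.7 with DMSO in SCC25, a log2 fold change of -1.84 ± 0.05 (SE, adjusted p = 1.35e-11). IFI44L had 219.9, 193 and 189 with squamocin and 637, 602 and 586 with DMSO in SCC25. The SCC15 libraries held 533, 589 and 376 with squamocin and 804, 849 and 806 with DMSO. The log2 fold changes in SCC25 and SCC15 were -1.60 ± 0.08 (SE, adjusted p = 2.81e-09) and -0.74 ± 0.16 (SE, adjusted p = 0.00626). Its groups were separate in both lines. IFI6, IFI16 (a DNA sensor) and IFI35 were lower in SCC25, at -1.28 ± 0.07 (SE), -0.35 ± 0.04 (SE) and -0.37 ± 0.06 (SE). In GENCODE release 44, 23.1% of the exonic bases of IFI6 are shared with a gene on the same strand.

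IFI44, the neighbor of IFI44L, was higher in SCC25 at 0.84 ± 0.05 (SE, adjusted p = 3.43e-09). In SCC15, IFI44L was the only one of the 6 past the threshold. The log2 fold changes of the other 5 in SCC15 ran from -0.03 for IFI16 to 0.64 for IFI6. Without squamocin replicate 3, IFI6 was higher at 0.32 (adjusted p = 9.78e-06) and IFI27 lower at -0.23 (adjusted p = 0.00308).

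RSAD2, CMPK2 (a mitochondrial nucleotide kinase) and ISG20 (a 3′ exonuclease) act on nucleotides or RNA, and all 3 were higher in SCC25. RSAD2 had 465, 458 and 529.6 with squamocin and 41.1, 53.1 and 58.4 with DMSO, the largest rise of the 41 genes in SCC25 at 3.24 ± 0.14 (SE, adjusted p = 4.42e-10). Even so, the treated SCC25 cells held 4.05 ± 0.367 RPKM (SD, n = 3), against 272 ± 8.33 RPKM in SCC15 cells with DMSO. In SCC15 RSAD2 had 15934, 17159.8 and 25018 with squamocin and 23671, 24739 and 23220.0 with DMSO, and its log2 fold change of -0.33 ± 0.18 (SE, adjusted p = 0.142) became -0.53 (adjusted p = 5.11e-10) without squamocin replicate 3.

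CMPK2 was called in opposite directions, with 1794, 1863 and 2189 with squamocin and 2549, 2511 and 2461 with DMSO in SCC15. The counts in SCC25 were 109, 178 and 139.9 with squamocin and 55.6, 66.6 and 45.1 with DMSO. Its log2 fold changes were -0.37 ± 0.10 (SE, adjusted p = 0.0132) and 1.33 ± 0.20 (SE, adjusted p = 5.29e-05), and the SCC15 call was lost without DMSO replicate 1 or 2. ISG20 had 1939, 1901 and 3587 with squamocin and 1374, 1342 and 1355 with DMSO in SCC15, with a log2 fold change of 0.80 ± 0.23 (SE, adjusted p = 0.019), and 1.69 ± 0.07 (SE) in SCC25. Squamocin replicate 3 was the highest of the SCC15 libraries for ISG20, the value without it was 0.50 (adjusted p = 1.14e-08), and the call was lost when any of the DMSO libraries was left out.

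Of the other effectors, SAMD9 and SAMD9L, which arrest translation of viral RNA, were lower in both lines. SAMD9 had 3095, 3228 and 2799.6 with squamocin and 8104, 8823 and 8152 with DMSO in SCC15. In SCC25 the values were 614, 619.8 and 389 with squamocin and 1386, 1415 and 1466 with DMSO. Its log2 fold changes were -1.46 ± 0.09 (SE, adjusted p = 3.17e-05) and -1.43 ± 0.14 (SE, adjusted p = 9.24e-07). SAMD9L had 1469.9, 1486 and 1019 with squamocin and 3986, 4384 and 4150.1 with DMSO in SCC15, for a log2 fold change of -1.67 ± 0.15 (SE, adjusted p = 0.000123), and -1.15 ± 0.06 (SE) in SCC25. XAF1, an antagonist of the apoptosis inhibitor XIAP, had 133, 124 and 161 with squamocin and 443, 402 and 407 with DMSO in SCC25, a log2 fold change of -1.58 ± 0.11 (SE, adjusted p = 3.49e-08). In SCC15 the XAF1 groups overlapped, with -0.48 ± 0.34 (SE). In GENCODE release 44, 38.3% of the exonic bases of XAF1 are shared with an antisense gene.

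BST2 (tetherin), which holds budding virus at the cell surface, was lower in SCC25 at -0.71 ± 0.04 (SE, adjusted p = 3.56e-09). In SCC15 its treated libraries all lay above those with DMSO, but the log2 fold change of 0.50 ± 0.22 (SE, adjusted p = 0.0812) did not pass the test, whereas without replicate 3 it was 0.23 (adjusted p = 3.23e-05). EPSTI1 passed the test in neither line and had values of -0.57 ± 0.28 (SE) and 0.14 ± 0.09 (SE), although it was lower in SCC15 without replicate 3, at -0.87 (adjusted p = 0.00102).

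**Figure D3:**
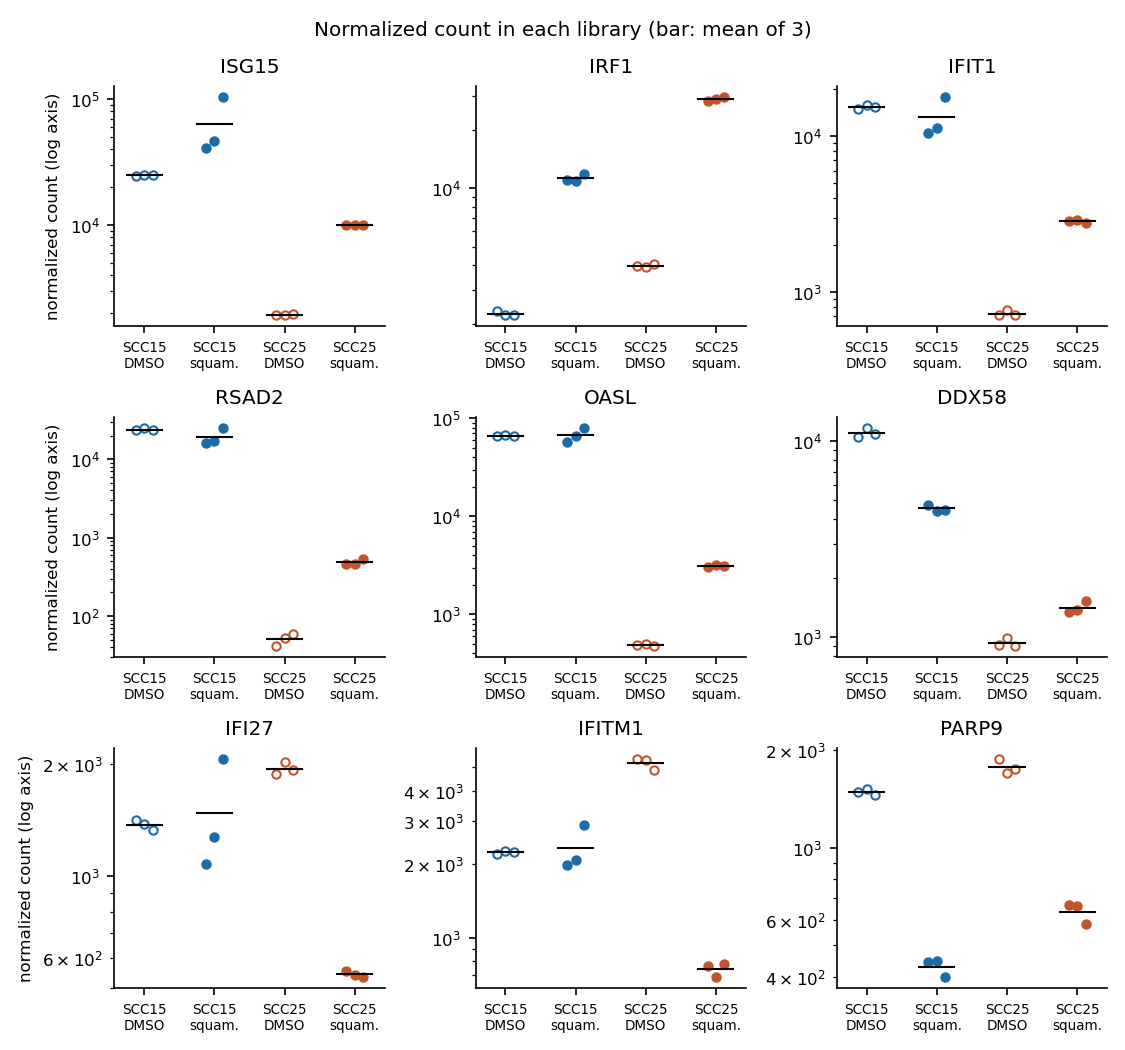
Normalized count (vertical log axis) of 9 genes in each library of the 4 groups, with open points for DMSO, filled points for squamocin and a bar at the mean of 3 libraries. IRF1 was higher with squamocin in both lines and PARP9 lower, RSAD2 and OASL were higher with squamocin in SCC25 and had overlapping groups in SCC15, and DDX58 moved down in SCC15 and up in SCC25.

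The responses were next compared between the lines. 5 members were higher in both (IRF1, IRF7, IRF9, ISG15 and ISG20), beside 22.1% of the 14454 genes tested in both lines. 11 members were lower in both (IFIT3, IFIT5, OAS2, OAS3, MX1, MX2, PARP9, DTX3L, IFI44L, SAMD9 and SAMD9L), beside 18.6%. 3 members were lower in SCC15 and higher in SCC25, namely DDX58, IFIT2 and CMPK2, beside 4.66% of all genes, and IFITM2 was the only member higher in SCC15 and lower in SCC25, beside 5.44%. These 4 opposite calls became 14 without the SCC15 squamocin replicate 3, where 15% of all genes were called in opposite directions, 7 without squamocin replicate 1, and 2 without DMSO replicate 1 or 2 of SCC15. With edgeR on recovered reads there were 7 and with DESeq2 9, where 10.4% and 10.1% of all genes were called in opposite directions. With equal library totals there were 12, beside 10.8% of all genes.

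The difference itself, the SCC25 log2 fold change minus that of SCC15, was tested as a contrast. It was above 0 for 20 members, beside 26% of all genes, and below 0 for 16, beside 26.1%, and it did not pass the test for 5. The median difference was 0.37 for the members and -0.01 for all genes. RSAD2 had the largest difference, 3.57 ± 0.22 (SE, adjusted p = 1.04e-07), followed by OASL with 2.68 ± 0.14 (SE, adjusted p = 3.91e-08), HERC5 with 2.27 ± 0.15 (SE, adjusted p = 1.66e-07) and IFIT1 with 2.23 ± 0.21 (SE, adjusted p = 2.57e-06). At the other end stood IFITM1 with -2.84 ± 0.17 (SE, adjusted p = 7.73e-08), IFI6 with -1.92 ± 0.28 (SE, adjusted p = 8.84e-05) and IFI27 with -1.88 ± 0.24 (SE, adjusted p = 3.24e-05).

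By role, the difference was above 0 for all 3 sensors, all 4 IFIT genes, ISG15 and both HERC ligases, and RSAD2, CMPK2 and ISG20. It was below 0 for all 3 IFITM genes, for IRF7, IRF9 and STAT2, and for 5 of the 6 genes named IFI. The transcription factors thus included genes with a smaller rise in SCC25, with differences of -1.36 ± 0.19 (SE, adjusted p = 8.29e-05) for IRF7 and -0.95 ± 0.28 (SE, adjusted p = 0.0112) for IRF9, beside IRF1 with a larger rise, at 0.53 ± 0.09 (SE, adjusted p = 0.000282). The remaining roles were mixed. Of 4 OAS genes 1 was above and 3 below 0, and of 5 other effectors 1 was above and 2 below. Only GBP1 was above 0 beside MX1 and MX2, which did not pass, and PARP9 and DTX3L were above 0 where PARP14 did not pass. With equal library totals 8 members, in place of 16, had a difference below 0, beside 16.5% of all genes.

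**Figure D4:**
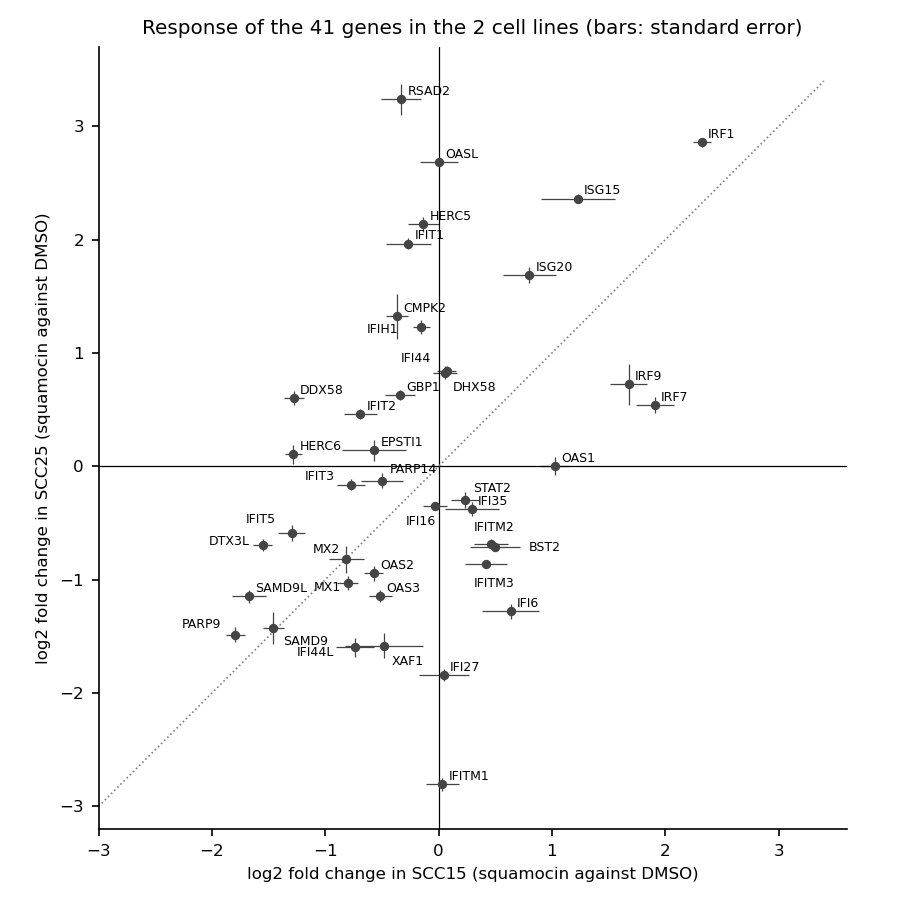
Log2 fold change (squamocin against DMSO) of the 41 genes in SCC15 (horizontal axis) and SCC25 (vertical axis), with standard errors as bars and a dotted line where the responses would be equal. IRF1 lay high in both lines, RSAD2, OASL, HERC5 and IFIT1 lay high on the SCC25 axis with SCC15 values from -0.33 to 0.00, and IFITM1 and IFI27 lay low on the SCC25 axis with SCC15 values of 0.03 and 0.05.

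Related members were also compared within each library, since the ratio of a pair of genes does not depend on the scaling of libraries. 11 pairs were compared in each line, 22 comparisons in all. The smallest p that an exact permutation test of 3 against 3 libraries allows is 0.1, so none could pass the threshold, and the ratios are given on the log2 scale as mean ± SD of 3 libraries.

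IFI44 and IFI44L lie 3650 bases apart on chromosome 1. In SCC25 their log2 ratio was 3.69 ± 0.12 with squamocin and 1.25 ± 0.07 with DMSO, a change of 2.44 (two-sided exact permutation p = 0.1, adjusted p = 0.116). In SCC15 it changed in the same direction by 0.81. The ratio of IFIT1 to IFIT3 was 0.78 ± 0.02 with squamocin and -1.34 ± 0.05 with DMSO in SCC25, so that IFIT1 passed from below IFIT3 to above it, a change of 2.13, and in SCC15 the change was 0.51. For HERC5 and HERC6 on chromosome 4 the ratio was 2.17 ± 0.22 with squamocin and 0.14 ± 0.03 with DMSO in SCC25 and changed by 2.03, and in SCC15 by 1.15. These 3 pairs had no overlap between treated and untreated libraries in either line. The same held for all other pairs except RSAD2 with CMPK2 and MX1 with MX2. The share of all possible gene pairs with separate ratios was not computed, so this describes the pairs only.

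RSAD2 and CMPK2 lie on opposite strands of chromosome 2 and overlap by 830 bases. Their ratio was 1.78 ± 0.38 with squamocin and -0.13 ± 0.43 with DMSO in SCC25, a change of 1.91, but the change in SCC15 was 0.04 with overlapping groups. OAS1 gained on its neighbor OAS3 in both lines, by 1.54 in SCC15 and 1.14 in SCC25. OASL, which lies apart from the OAS cluster on chromosome 12, gained 3.63 on OAS2 in SCC25 and 0.58 in SCC15. IFITM1 lost against IFITM3, with changes of -0.38 in SCC15 and -1.95 in SCC25, and PARP9 lost against DTX3L, with -0.24 and -0.79. MX1 and MX2 kept overlapping ratios in both lines. The ratio of IFIT2 to IFIT3 rose by 0.08 in SCC15 and 0.62 in SCC25. That of SAMD9 to SAMD9L changed in opposite directions, by 0.21 in SCC15 and -0.28 in SCC25, with treated and untreated libraries separate in both lines.

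**Figure D5:**
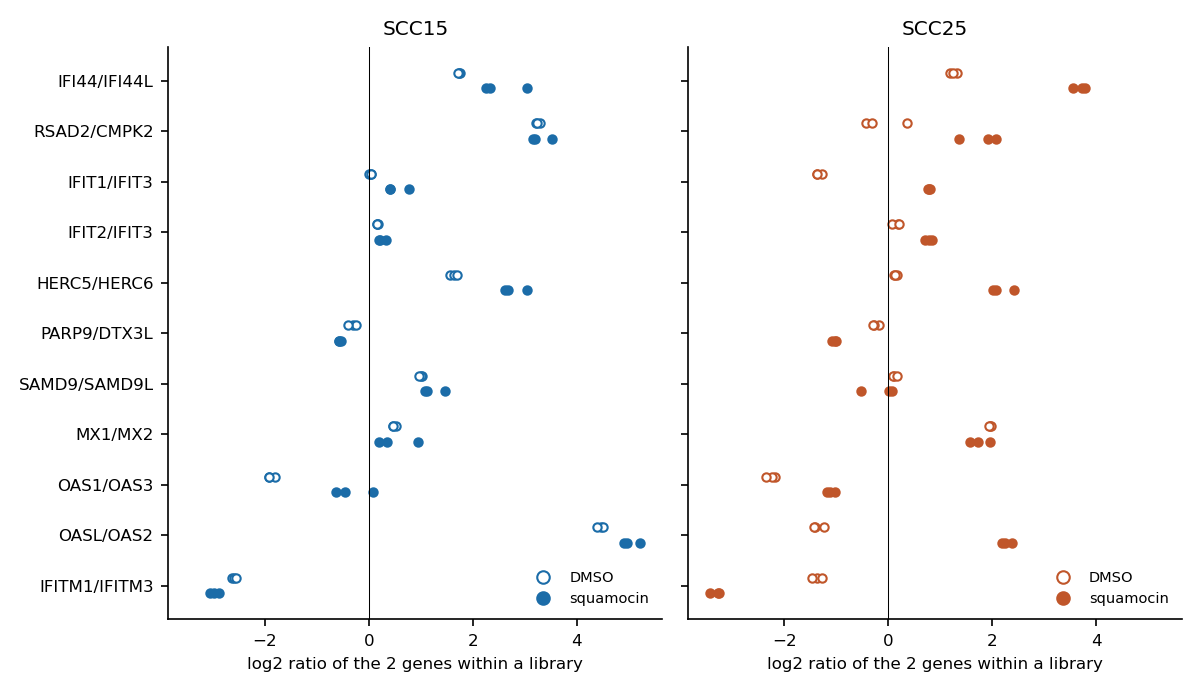
Log2 ratio of the genes of each pair within a library (horizontal axis) for 11 pairs in SCC15 (left) and SCC25 (right), with open points for DMSO and filled points for squamocin, 3 libraries each. In SCC25 the filled points of IFI44/IFI44L, IFIT1/IFIT3, HERC5/HERC6 and OASL/OAS2 lay to the right of the open points, and those of IFITM1/IFITM3 to the left.

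The genes of the pathway around the members were taken from lists written with earlier results of these data known. Of the interferon genes, IFNB1 and the IFN-λ genes IFNL1, IFNL2 and IFNL3 were detected in both lines. In SCC25, IFNB1 had 1.61, 1.8 and 0.885 with DMSO and 43.2, 34.3 and 22.2 with squamocin, and IFNL1 had 3.22, 2.7 and 1.77 with DMSO and 407, 299 and 409.7 with squamocin. IFNL2 had 1.61, 2.7 and 1.77 with DMSO and 585, 569.9 and 588 with squamocin, and IFNL3 had 1.61, 0 and 0 with DMSO and 328, 362 and 374 with squamocin. The SCC25 DMSO libraries held no more than a few reads of each, so no fold is given, and all treated libraries lay above them.

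In SCC15 the same genes were present with DMSO. IFNB1 had 124, 116 and 105 with DMSO and 90.4, 76.4 and 151 with squamocin and IFNL1 had 580.1, 529 and 515 with DMSO and 620.2, 706 and 1139.7 with squamocin, and neither passed the test (adjusted p = 0.562 and 0.0551). IFNL2 was higher with squamocin, with 70, 68 and 86.4 with DMSO and 154, 214 and 317 with squamocin and a log2 fold change of 1.54 ± 0.26 (SE, adjusted p = 0.00172). IFNL3 had 122, 127 and 119.6 with DMSO and 115, 136 and 235 with squamocin and did not pass (adjusted p = 0.291). IFNL2 and IFNL3 are near-identical, so that the split of reads between them is uncertain. IFNE fell in SCC15, with 29, 17.4 and 14 with DMSO and 2.32, 2.28 and 3.73 with squamocin, and had 16.1, 24.3 and 10.6 with DMSO and 1.27, 2.08 and 0 with squamocin in SCC25. IFNK and IFNL4 had no more than 10.2 normalized counts in any SCC15 library. The part of these interferon genes in the response of the members was not tested.

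The counts of the following lists stand beside the 30.9% of all tested genes that were higher and 30% that were lower in SCC15, and 38.3% and 38.5% in SCC25. Of 10 genes for interferon receptors and their signal transduction, 5 were higher and 3 lower in each line. The interferon-γ receptor chain IFNGR2 was highest in SCC15 at 1.47 ± 0.12 (SE) and the IFN-λ receptor chain IFNLR1 lowest at -0.91 ± 0.17 (SE). In SCC25 the extremes were JAK2 at 0.94 ± 0.10 (SE) and IFNGR1 at -0.66 ± 0.04 (SE). Of 14 genes of the induction pathway, SCC15 had 5 higher and 4 lower, and SCC25 had 5 higher and 7 lower. The extremes in SCC15 were the adaptor TICAM1 at 1.00 ± 0.10 (SE) and the RNA receptor TLR3 at -2.11 ± 0.14 (SE), and in SCC25 the ubiquitin ligase TRAF6 at 1.502 ± 0.050 (SE) and the DNA-sensing adaptor STING1 at -1.48 ± 0.06 (SE).

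Of 8 negative regulators, SCC15 had 2 higher and 3 lower, and SCC25 had 2 higher and 4 lower. SOCS1, which inhibits JAK kinases, had 1366, 1331 and 1820.3 with squamocin and 68.2, 57.7 and 58.5 with DMSO in SCC15. The counts in SCC25 were 3839.7, 4086 and 3899 with squamocin and 201.5, 192 and 181 with DMSO. Its log2 fold changes of 4.58 ± 0.15 (SE, adjusted p = 4.72e-06) and 4.36 ± 0.06 (SE, adjusted p = 2.22e-14) exceeded those of every member in either line. USP18, the protease that removes ISG15 and dampens receptor signaling, had 354, 367 and 496 with squamocin and 481, 457 and 476 with DMSO in SCC15. In SCC25 the values were 205, 164 and 212 with squamocin and 307, 318 and 302 with DMSO. It did not pass the test in SCC15 (adjusted p = 0.186) and was lower in SCC25 at -0.68 ± 0.11 (SE, adjusted p = 8.07e-05). TRIM27 was the lowest of these regulators in both lines, at -0.56 ± 0.09 (SE) and -0.93 ± 0.05 (SE).

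Of 32 other interferon-stimulated genes, 31 were tested in each line. In SCC15, 8 were higher and 13 lower, from 0.92 ± 0.21 (SE) for LY6E to -1.76 ± 0.14 (SE) for ZNFX1, and in SCC25, 11 were higher and 18 lower, from 1.52 ± 0.09 (SE) for the chemokine CXCL11 to -1.49 ± 0.14 (SE) for BATF2. The median log2 fold changes were -0.18 and -0.46. Of 16 genes typical of interferon-γ, 15 were tested, and SCC15 had 3 higher and 5 lower, where SCC25 had 2 higher and 12 lower. The adhesion molecule ICAM1 was the highest in SCC15 at 0.83 ± 0.12 (SE) and the antigen presentation regulator CIITA the lowest at -1.64 ± 0.16 (SE). In SCC25 the chemokine CXCL10 was the highest at 1.02 ± 0.14 (SE). IDO1, which degrades tryptophan, was the lowest in SCC25, with 5.08, 13.5 and 5.55 with squamocin and 417, 493 and 461 with DMSO and a log2 fold change of -5.78 ± 0.28 (SE, adjusted p = 1.46e-09).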

How the data were processed

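RNA sequencing of 12 libraries (3 per group) was analysed from the deposited tables. Per the labels and the processing notes, the authors aligned reads to GRCh38 (hg38) with HISAT2 2.0.5 and counted them per gene with featureCounts 1.5.0-p3. Whether counting used strand is not given in the sources used here. The authors then divided each library's read counts by a single size factor, set within each cell line. The deposited signal holds these quotients, also in the SCC25 columns, whose names read FPKM. Fold changes, p-values and group means from the authors' own comparison were not used.

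Values times the recovered size factor were whole (tolerance 0.01) for 100% of genes, which gave the reads per library. Limma 3.58.1 (R 4.3.3, eBayes with trend, two-sided) was run on log2 values with a pseudocount of 1, for genes with a mean of at least 10, with Benjamini-Hochberg adjustment over all genes of a line, and the lines were compared by a contrast over the 14454 genes tested in both. A fold change on this scale understates that of low genes. RPKM used recovered reads and the union of exons in GENCODE release 44, since the tables give only gene start and end. These exons need not be those used for counting, and for IRF1 and IRF9 they cover more bases than the deposited gene spans. The RPKM and the shares of shared exons are therefore approximate for the counted genes. Ratios of gene pairs were tested by exact permutation. Alternatives were a pseudocount of 0.1 or 10, other filters, TMM factors, a replicate block, equal library totals, count models on recovered reads (edgeR 4.0.16, DESeq2 1.42.0), leaving out each library and an absolute log2 fold change above 1. The fits were tested on simulated data.

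All members are accounted for. Values per library are given for the 6 highest and 6 lowest fold changes of a line, for the sensors and transcription factors and for members called in opposite directions, and from each pathway list the highest and lowest called gene of a line is named, with USP18 and the interferon genes. One pathway gene that this rule names is not reported here. CD14, PTPRC and the keratins are named from marker lists. The members, lists and this rule were chosen with earlier results of these data known.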

Additional observations from a re-analysis of the deposited data

Results flagged for a closer look

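The response to squamocin differed between SCC15 and SCC25 by the contrast in limma (adjusted p under 0.05 over the 14454 genes tested in both lines) for 36 of the 41 members and for 19 of the pathway genes named above. By the same contrast, 26% of all genes had a larger and 26.1% a smaller response in SCC25. Apart from USP18 and the interferon genes, pathway genes were named as the highest or lowest of a list, which favors a difference. Values are the SCC25 log2 fold change minus the SCC15 log2 fold change. Among members with a larger value in SCC25, the difference was 3.57 for RSAD2, 2.68 for OASL, 2.27 for HERC5, 2.23 for IFIT1, 1.88 for DDX58, 1.69 for CMPK2, 1.39 for HERC6, 1.38 for IFIH1, 1.15 for IFIT2, 1.13 for ISG15, 0.971 for GBP1, 0.886 for ISG20, 0.855 for DTX3L, 0.774 for IFI44, 0.772 for DHX58, 0.71 for IFIT5, 0.614 for IFIT3, 0.535 for IRF1, 0.528 for SAMD9L and 0.308 for PARP9. Among members with a smaller value in SCC25, it was -2.84 for IFITM1, -1.92 for IFI6, -1.88 for IFI27, -1.36 for IRF7, -1.28 for IFITM3, -1.21 for BST2, -1.15 for IFITM2, -1.1 for XAF1, -1.03 for OAS1, -0.954 for IRF9, -0.859 for IFI44L, -0.669 for IFI35, -0.629 for OAS3, -0.53 for STAT2, -0.37 for OAS2 and -0.317 for IFI16. Among the interferon genes, the difference was 7.68 for IFNL3, 6.16 for IFNL1, 6.06 for IFNL2 and 3.96 for IFNB1, sizes that depend on the pseudocount since the SCC25 DMSO libraries held few or no reads of these genes. Among the other pathway genes, the difference was 2.21 for CXCL11, 1.6 for CXCL10, 1.37 for IFNLR1, 0.961 for TRAF6, 0.684 for TLR3, 0.638 for JAK2 and 0.494 for ZNFX1, and on the other side -2.16 for LY6E, -1.8 for ICAM1, -1.31 for STING1, -1.01 for IFNGR2, -0.882 for TICAM1, -0.805 for BATF2, -0.525 for CIITA and -0.371 for TRIM27. Groups of 3 libraries are too small for a test of single outlying libraries.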

How the results depend on the processing

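Under the alternatives that kept all libraries, 709 of 738 member fold changes kept their direction and side of the threshold or were called under neither setting. With equal library totals, which shifted the median of all genes by -0.51 in SCC15 and -0.21 in SCC25, 28 members were lower in SCC15, the member medians were -0.766 and -0.368, 12 had opposite calls and 8 had a smaller response in SCC25. The log2 fold changes that reversed under it were -0.0361 for IFITM2 in SCC15, -0.428 for IFI44 in SCC15, -0.441 for DHX58 in SCC15, -0.452 for IFI27 in SCC15, -0.465 for IFITM1 in SCC15, -0.494 for OASL in SCC15 and -0.208 for OAS1 in SCC25. Opposite calls numbered 7 with edgeR and 9 with DESeq2. With an absolute log2 fold change above 1 required, 7 members were lower in SCC15, 9 higher and 10 lower in SCC25, 2 higher in both, 3 lower in both and 0 opposite, as fewer genes could pass. The shares of all genes were 14.6%, 13.9%, 17%, 5.9%, 6.34% and 0.429%, in that order. Leaving out 1 library at a time gave 5 to 11 members higher and 14 to 25 lower in SCC15, 16 to 17 and 21 to 22 in SCC25, 4 to 5 higher and 11 to 13 lower in both, 2 to 14 opposite, and 19 to 21 and 13 to 16 with a larger or smaller response in SCC25, with medians of -0.289 to -0.158 in SCC15 and -0.216 to -0.155 in SCC25. The shares of all genes were 24.8 to 38% higher and 22.8 to 37.6% lower in SCC15, 36.7 to 38.9% and 35.1 to 39.8% in SCC25, 18.5 to 25.2% and 14.8 to 22% in both, 7 to 15% opposite, and 23.6 to 33.4% and 23.4 to 32.5% with a larger or smaller response in SCC25. The counts of 11 higher, 25 lower and 14 opposite came without the SCC15 squamocin replicate 3, which also reversed the log2 fold changes to -0.226 for IFI27 in SCC15, -0.137 for IFITM1 in SCC15 and -0.125 for OASL in SCC15, and their ranges over the libraries left out were -0.226 to 0.242 for IFI27, -0.137 to 0.136 for IFITM1, -0.125 to 0.121 for OASL. The cause of these changes was not tested. Nothing in the labels pairs libraries of the same replicate number, and their deviations from the group means correlated only between -0.051 and 0.049 over all combinations of treated and untreated libraries, with no squamocin library correlating best with the DMSO library of its own number. With the replicate block 8 members were higher and 16 lower in SCC15, 16 and 22 in SCC25, and 5 had opposite calls, beside 29.3%, 28%, 38.1%, 38.2% and 8.79% of all genes. Groups of 3 libraries limit every p-value here.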

Other observations

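Other promoter motifs were searched in the same 34 windows. The gamma-activated site TTCNNNGAA was present in 9 windows (26.5%), where 7.88% of all 27305 windows held it. In IFITM1, IFI27, BST2 and EPSTI1 a match to it overlapped a match to the ISRE core, so these are not separate sites. The gamma-activated site was found for 2 of 12 members higher in SCC25 (16.7%), 4 of 18 lower (22.2%) and 3 of 4 not past the threshold (75%). In SCC15 it was found for 3 of 5 that were higher (60%), 1 of 13 that were lower (7.69%) and 5 of 16 not past the threshold (31.2%), and these shares of few windows were not tested. The κB motif was present in 7 windows (20.6%), against 5.72% of all windows, among them 3 of 12 members higher in SCC25 (25%) and 4 of 18 lower (22.2%). In IRF1, whose window held no ISRE core, both of these motifs were found, with the gamma-activated site at -124 to -116 and the κB motif at -50 to -41 from the start. The window of RSAD2, the member with the largest rise in SCC25, held none of the motifs searched, which says only that these exact letters are not in this window. It did hold GAAA, 1 base and GAAA again, a closer spacing that the search did not count. The windows of DDX58, OAS1 and XAF1, without an ISRE core match, held this spacing too.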
